A study of Mus musculus with 8 samples.

Results

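The ISG15 conjugation system was followed through 5 genes, Isg15, Usp18, Uba7, Ube2l6 and Herc6, chosen by name from the 55414 gene identifiers of the count table. Earlier results of these data were known when they and the gene lists below were chosen. All 5 genes were found once and all 5 passed the filter on low counts, among 16304 genes tested. Read counts came from 8 messenger RNA libraries of iBMDM cells, an immortalized line of macrophages grown from mouse bone marrow, of genotype WT. The 4 groups had 2 libraries each. In DSF+LPS cells, 0.5 h of 5 μM disulfiram (DSF) preceded 4 h of 1 μg/ml lipopolysaccharide (LPS). LPS cells received the solvent DMSO in place of the drug, DSF cells received water in place of LPS, and control cells received both vehicles. DSF is a drug against alcohol dependence, and LPS comes from the outer membrane of bacteria and acts through the receptor TLR4. The question of the study was whether the drug blocks TLR4 signalling. The cells are 1 immortalized line sampled at 1 time, and the labels number the libraries of a group without saying whether they came from separate cultures. P-values therefore measure only the spread between these libraries, which may be technical.

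ISG15 is a small protein related to ubiquitin that cells make in response to type I interferon. It is joined to other proteins by a chain of enzymes: UBA7 activates it (E1), UBE2L6 carries it (E2) and, in mice, HERC6 is the main ligase that attaches it (E3). USP18 removes ISG15 from its targets and separately dampens signalling at the interferon receptor, and free ISG15 also acts outside the conjugation chain. In macrophages a route from TLR4 to such genes runs through interferon-β. Its receptor activates transcription factors, STAT2 and IRF9 among them, that bind interferon-stimulated response elements in promoters.

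Each library held 17822041 to 21694922 counts. Levels are CPM (counts scaled to an equal library total, here with TMM scaling factors). Rises and falls are those with an adjusted p under 0.05 in edgeR's quasi-likelihood test, with Benjamini-Hochberg adjustment over all genes tested. Fold changes are given on the log2 scale with an approximate standard error (SE). All 8 macrophage markers had counts in every group, with summed levels of 2185 to 2269 CPM (without TMM) in DSF+LPS, 2507 to 2603 in LPS, 1994 to 2128 in DSF and 2360 to 2409 in control libraries, although Mertk was low in every group. Single markers differed with the drug in both directions. Fcgr1 averaged 10.0 CPM in DSF+LPS, 51.3 in LPS, 11.3 in DSF and 43.2 in control libraries, Csf1r 535, 804, 461 and 815 CPM and Cd68 881, 536, 760 and 580.4 CPM in the same order of groups, and their part in the results below was not tested. No list of markers of dendritic cells, neutrophils, lymphocytes, fibroblasts or epithelial and endothelial cells summed to more than 4.18 CPM in any library. The T cell genes Cd3e and Cd8a and the neutrophil gene S100a9 had 0 counts in all 4 groups. The neutrophil sum was 0.611 to 1.05 CPM in DSF+LPS, 0.187 to 0.663 in LPS, 1.11 to 1.55 in DSF and 0.0561 to 0.189 in control libraries, and the lymphocyte sum was 2.09 to 3.00, 0.749 to 1.23, 1.84 to 2.63 and 0.661 to 1.18 CPM in the same order of groups. Genes with at least 1 count numbered 23416 and 25081 in DSF+LPS, 20324 and 20303 in LPS, 24660 and 24298 in DSF and 19779 and 20318 in control libraries, and the part of this difference in the results below was not tested.

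LPS alone raised all 5 genes of the ISG15 system, and with DSF before LPS all 5 fell below their LPS level. The modifier Isg15 rose most with LPS, at 13.2-fold, followed by the protease Usp18 at 5.92-fold, the ligase Herc6 at 4.17-fold, the E2 Ube2l6 at 2.98-fold and the E1 Uba7 at 2.49-fold. In cells given both agents every gene was at 0.288 of its LPS level or lower. Isg15 kept a small LPS response under the drug, and the other 4 did not pass the test for one. Usp18 and Uba7 also fell with DSF alone.

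**Figure D1:**
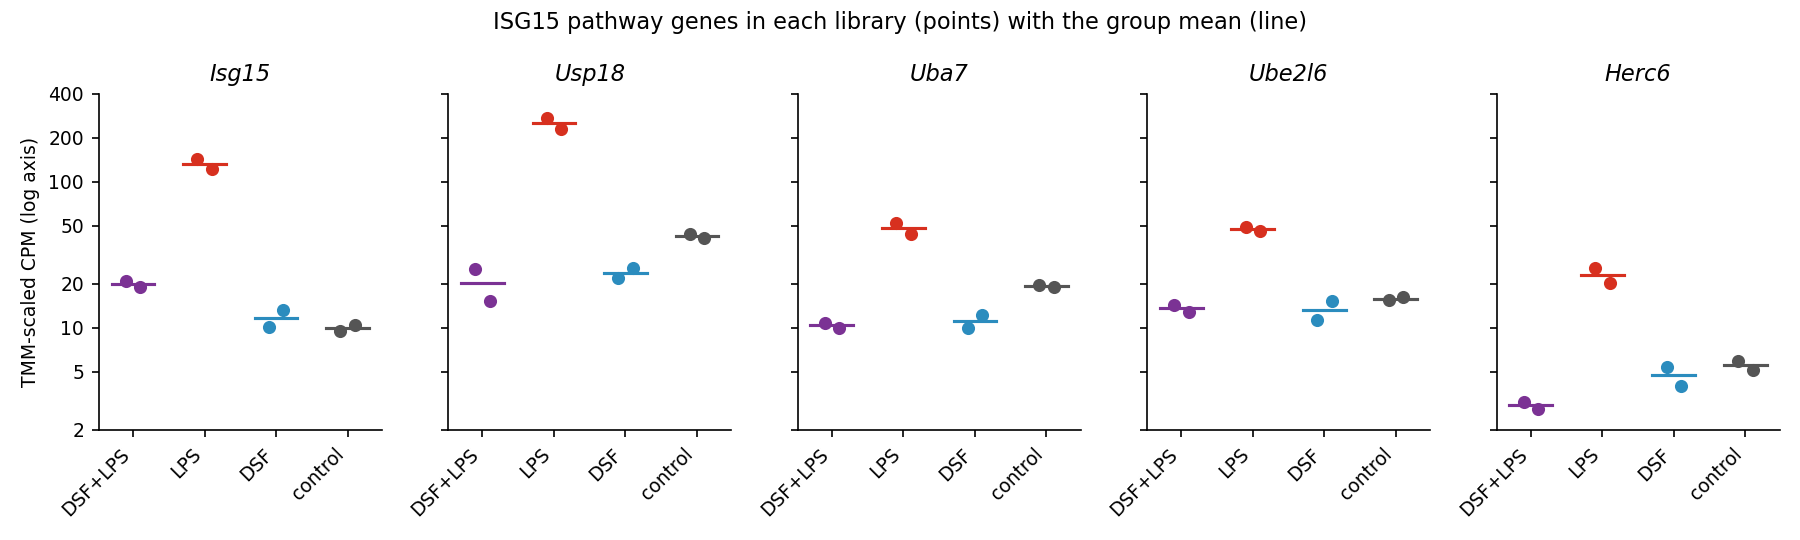
TMM-scaled CPM (log axis) of the 5 genes in each of 8 libraries, 2 points a group with the group mean as a line, for DSF+LPS, LPS, DSF and control. The LPS libraries stand above the other 6 for every gene, and the DSF+LPS points lie below control for Usp18, Uba7, Ube2l6 and Herc6 and above it for Isg15.

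Isg15, the modifier itself, had 21.0 and 18.9 CPM in DSF+LPS libraries, 142 and 122 CPM in LPS libraries, 10.1 and 13.3 CPM in DSF libraries and 9.52 and 10.4 CPM in control libraries, from 184 to 2896 counts a library. Both LPS libraries were far above all others, the DSF+LPS libraries stood next, and the DSF and control libraries overlapped. LPS raised Isg15 by 3.73 on the log2 scale (SE 0.13, edgeR adjusted p = 1.61e-11), and 175 of all genes tested had a higher log2 fold change. With DSF before LPS it fell relative to LPS (log2 fold change -2.73, SE 0.12, adjusted p = 1.22e-10). Within DSF-treated cells LPS raised it by 0.78 (SE 0.14, adjusted p = 0.00281). That call was lost without DSF replicate 1, where the log2 fold change was 0.59 and the adjusted p 0.0515. On the linear scale the gain with LPS was 8.28 CPM with the drug and 122 CPM without it, which makes the first 6.77% of the second. DSF alone gave a log2 fold change of 0.22 (SE 0.15, adjusted p = 0.210), which did not pass. It was 0.39 (adjusted p = 0.0469) without DSF replicate 1 and -0.02 without DSF replicate 2.

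Promoter windows were searched for a sequence that interferon-activated factors bind, and those of Isg15 and Uba7 are printed. Windows of 250 bases before to 50 after the start site came from RefSeq (build GRCm38.p6, an older build than the GRCm39 named for the counts) and matched Isg15, Uba7, Ube2l6 and Herc6. Isg15 is at chr4:156200769-156201068 on the minus strand and Uba7 at chr9:107975317-107975616 on the plus strand, and both are read 5′ to 3′ along the gene. Capitals mark matches to the core of the interferon-stimulated response element, GAAA and GAAA with any 2 bases between them, searched on both strands.
Isg15: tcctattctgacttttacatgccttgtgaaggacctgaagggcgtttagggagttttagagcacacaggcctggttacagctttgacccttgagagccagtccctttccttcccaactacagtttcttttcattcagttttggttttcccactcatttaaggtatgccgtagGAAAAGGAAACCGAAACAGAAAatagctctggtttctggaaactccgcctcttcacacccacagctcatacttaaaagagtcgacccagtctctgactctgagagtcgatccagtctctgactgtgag
Uba7: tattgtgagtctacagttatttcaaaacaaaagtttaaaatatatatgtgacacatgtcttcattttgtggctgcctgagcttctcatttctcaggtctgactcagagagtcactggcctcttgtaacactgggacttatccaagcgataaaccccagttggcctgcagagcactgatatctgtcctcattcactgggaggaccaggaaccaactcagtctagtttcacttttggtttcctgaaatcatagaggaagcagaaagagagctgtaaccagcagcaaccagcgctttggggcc
Isg15 held 3 matches that overlap one another, at positions -78, -72 and -66 from the start site, and the windows of Uba7, Ube2l6 and Herc6 held 0. Of all 32851 mouse promoter windows of this length 3.44% held the core, as did 11 of 19 windows of a list of other interferon-stimulated genes. A form of the NF-kB site (GGGA and CC with any 4 bases between them), searched in the same way, was not found in the 4 windows, against 20.7% of all windows that held it. A match is a description of the letters, and its absence says only that these exact letters are not in this window. Whether matches bear on the size of the LPS rise was not tested.

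Usp18, the protease that takes ISG15 off its targets, had the highest CPM of the 5 genes after LPS. It had 25.2 and 15.2 CPM in DSF+LPS libraries, 272 and 228 CPM in LPS libraries, 21.7 and 25.7 CPM in DSF libraries and 43.5 and 41.0 CPM in control libraries, from 278 to 5546 counts. All 4 libraries with DSF were below both control libraries, whether or not LPS was added, and the DSF+LPS and DSF libraries overlapped. LPS raised Usp18 by 2.57 (SE 0.16, adjusted p = 7.20e-09). With both agents it fell relative to LPS (log2 fold change -3.62, SE 0.17, adjusted p = 1.63e-10), to 0.0811 of the LPS level, the steepest fall of the 5, and 100 of all genes tested had a lower value. With DSF alone it fell to 0.561 of control (log2 fold change -0.83, SE 0.16, adjusted p = 0.000558). Under the drug the LPS response was -0.22 (SE 0.17, adjusted p = 0.455). It was -0.65 (adjusted p = 0.00298) without DSF+LPS replicate 1 and 0.12 (adjusted p = 0.598) without DSF+LPS replicate 2, so that its direction depended on which DSF+LPS library was used.

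Uba7, the E1 that activates ISG15, had 10.8 and 9.93 CPM in DSF+LPS libraries, 52.4 and 44.0 CPM in LPS libraries, 9.92 and 12.2 CPM in DSF libraries and 19.8 and 19.0 CPM in control libraries. As for Usp18, the 4 libraries with DSF lay below control and overlapped one another. LPS raised Uba7 by 1.31 (SE 0.12, adjusted p = 1.03e-06), and with both agents it fell relative to LPS (log2 fold change -2.21, SE 0.13, adjusted p = 2.63e-09). With DSF alone it fell to 0.569 of control (log2 fold change -0.81, SE 0.14, adjusted p = 0.000128). Within DSF-treated cells LPS gave a log2 fold change of -0.08 (SE 0.14, adjusted p = 0.772).

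Ube2l6, the E2 that carries activated ISG15 to the ligase, had 14.4 and 12.9 CPM in DSF+LPS libraries, 49.0 and 45.6 CPM in LPS libraries, 11.3 and 15.2 CPM in DSF libraries and 15.5 and 16.2 CPM in control libraries. The LPS libraries stood alone, and the other 6 spanned a narrow range with control at its top. It rose by 1.58 with LPS (SE 0.13, adjusted p = 2.40e-07) and, with both agents, fell relative to LPS (log2 fold change -1.79, SE 0.13, adjusted p = 2.66e-08), the smallest fall of the 5. DSF alone gave -0.26 (SE 0.14, adjusted p = 0.120). That difference passed with library size as the only scaling (-0.37, adjusted p = 0.0325) and without DSF replicate 2 (-0.51, adjusted p = 0.0113). Within DSF-treated cells LPS gave 0.05 (SE 0.14, adjusted p = 0.879), and -0.06 with library size alone.

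Herc6, the ligase, was the least abundant, with 51 to 526 counts a library. It had 3.13 and 2.78 CPM in DSF+LPS libraries, 25.8 and 20.3 CPM in LPS libraries, 5.43 and 4.03 CPM in DSF libraries and 5.95 and 5.14 CPM in control libraries. The DSF+LPS libraries were the lowest of all 8, below both DSF libraries, and the DSF and control libraries overlapped. LPS raised Herc6 by 2.06 (SE 0.18, adjusted p = 4.37e-07), and with both agents it fell relative to LPS (log2 fold change -2.96, SE 0.20, adjusted p = 8.01e-09), to 0.129 of the LPS level. DSF alone gave -0.22 (SE 0.20, adjusted p = 0.370). Within DSF-treated cells LPS gave a log2 fold change of -0.68 (SE 0.22, adjusted p = 0.0586), opposite in sign to the response without the drug. It passed in 4 alternatives, with values from -0.68 to -0.86 (library size alone, no filter, the replicate number as a block, and without DSF replicate 2). These are bulk RNA measurements, in which fewer cells of a type and less RNA per cell cannot be told apart.

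Counted over the comparisons, all 5 genes rose with LPS, where 15.2% of all genes tested rose and 29% were called in either direction, and their median log2 fold change was 2.06, against 0.02 for all genes. With DSF+LPS relative to LPS all 5 fell, where 31.6% of all genes fell, 33.7% rose and 65.3% were called in either direction, with a median of -2.73 against 0.04. Within DSF-treated cells 1 of 5 rose with LPS (Isg15) and none fell, where 5.53% of all genes rose and 6.53% fell. DESeq2 gave the same counts of members there, and at an unadjusted edgeR p under 0.05 Herc6 was lower as well. With DSF alone 2 of 5 fell (Usp18 and Uba7) and none rose, where 27.1% of all genes fell, 31% rose and 58.1% were called in either direction, so that the count of falls stood close to the background. With both agents relative to control Isg15 rose and Usp18, Uba7 and Herc6 fell, where 34.3% of all genes rose, 30.9% fell and 65.2% were called in either direction. Comparisons that share the LPS or the control libraries are not independent of each other.

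**Figure D2:**
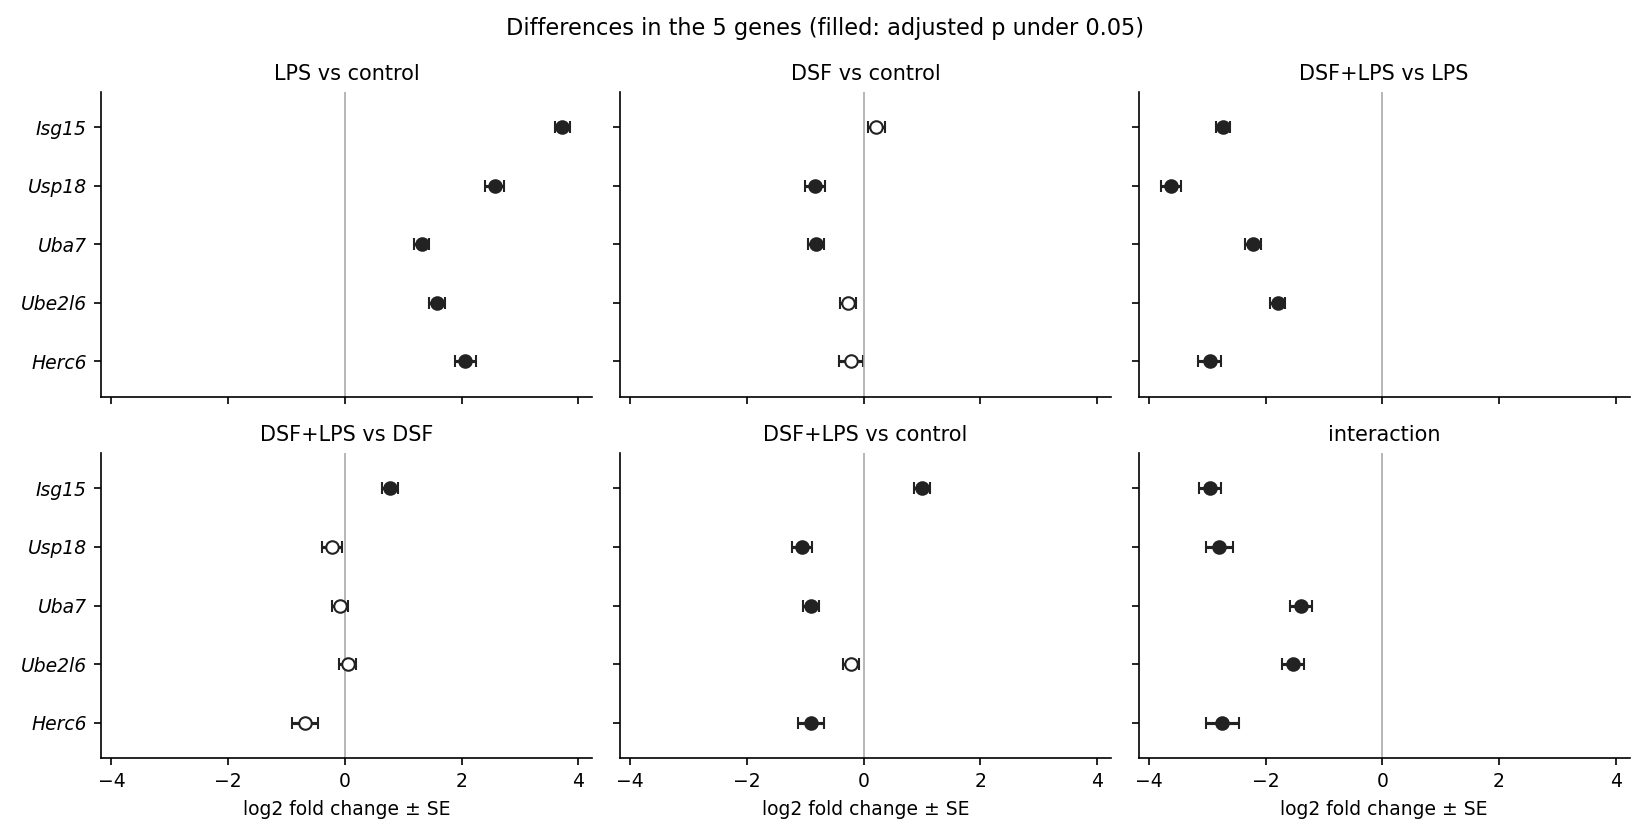
Log2 fold changes ± SE of the 5 genes in 6 comparisons, from the edgeR fit of all 8 libraries, with filled points for an adjusted p under 0.05. All 5 points are to the right of 0 for LPS vs control and to the left of it for DSF+LPS vs LPS and for the interaction, and Isg15 alone is to the right for DSF+LPS vs control.

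The interaction tested the LPS response with the drug minus that without it. It was downward for all 5 genes, which LPS alone raised. Of all genes tested 12.2% were called downward, 7.58% upward and 19.7% in either direction. For a gene that LPS lowers, an upward interaction can mark a smaller fall, so these shares give direction and not size of response. The log2 differences were -2.95 for Isg15 (SE 0.19, adjusted p = 5.97e-08), -2.79 for Usp18 (SE 0.23, adjusted p = 7.92e-07), -2.74 for Herc6 (SE 0.28, adjusted p = 6.95e-06), -1.53 for Ube2l6 (SE 0.19, adjusted p = 4.77e-05) and -1.40 for Uba7 (SE 0.19, adjusted p = 9.79e-05). Where the response under the drug was near 0, as for Usp18 (-0.22), Uba7 (-0.08) and Ube2l6 (0.05), this difference follows the size of the LPS rise by construction. For Isg15 (0.78) and Herc6 (-0.68) the response under the drug enters as well. On the linear scale, the change in CPM with LPS under the drug was -3.53 for Usp18, -0.661 for Uba7, 0.379 for Ube2l6 and -1.77 for Herc6. Without the drug it was 208 for Usp18, 28.8 for Uba7, 31.5 for Ube2l6 and 17.5 for Herc6.

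**Figure D3:**
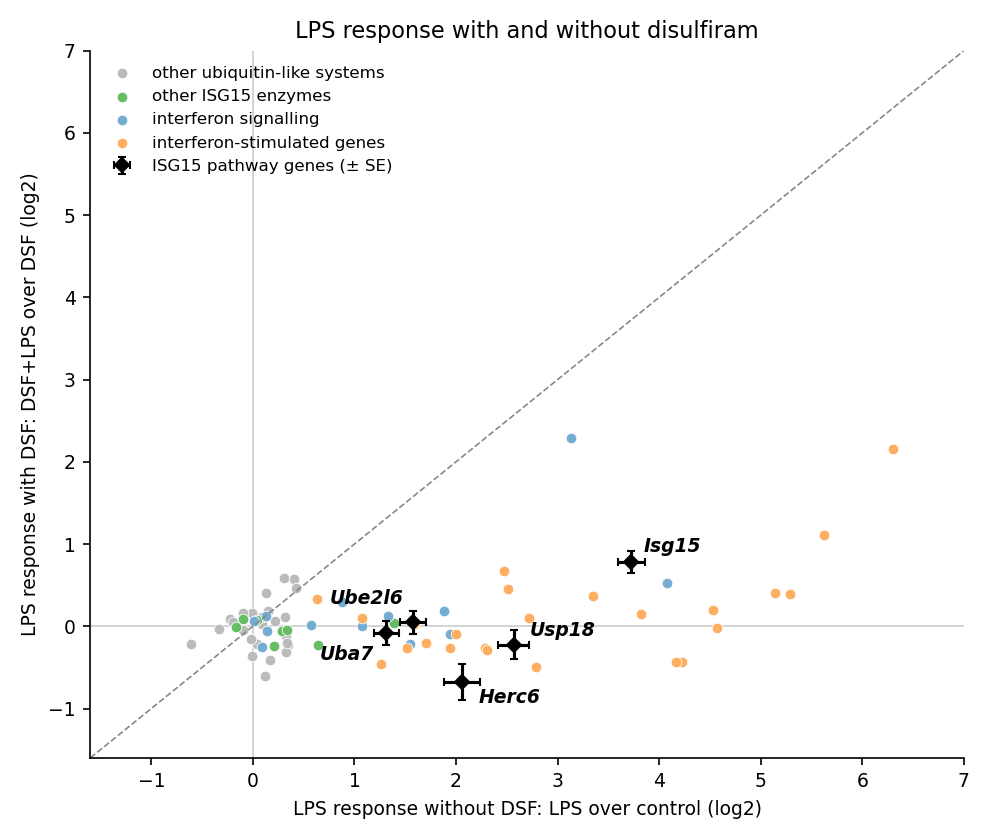
LPS response with DSF (DSF+LPS over DSF, vertical) against LPS response without DSF (LPS over control, horizontal), both as log2 fold changes, for the 5 ISG15 pathway genes (black diamonds, ± SE) and the tested genes of 4 other lists. The 2 axes share no library, the dashed line marks equal responses, and the 5 genes lie from 1.31 to 3.73 on the horizontal axis but from -0.68 to 0.78 on the vertical.

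With both agents compared with none, the modifier and 3 of the 4 genes that handle it stood on opposite sides of control. Calls on either side were common here, as 34.3% of all genes tested rose, 30.9% fell and 65.2% were called in either direction. Isg15 was 2.00-fold above control in DSF+LPS cells (log2 fold change 1.00, SE 0.14, adjusted p = 1.82e-05). Usp18 was at 0.480 of control (log2 fold change -1.06, SE 0.17, adjusted p = 6.60e-05), Uba7 at 0.537 (adjusted p = 4.65e-05) and Herc6 at 0.536 (adjusted p = 0.00205). Ube2l6 did not pass (log2 fold change -0.22, SE 0.14, adjusted p = 0.188), and it did with library size alone (-0.42, adjusted p = 0.0139).

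The balance between the 5 transcripts differed between groups. Per kilobase of merged exon (GENCODE M21 lengths, while the annotation used for counting is not given in the sources used here), Isg15 averaged 26.4 ± 1.92 CPM per kb in DSF+LPS, 175 ± 18.7 in LPS, 15.5 ± 3.06 in DSF and 13.2 ± 0.841 in control (SD, n = 2). Usp18 averaged 11.4 ± 4.02, 141 ± 17.7, 13.4 ± 1.59 and 23.9 ± 1.01 CPM per kb in DSF+LPS, LPS, DSF and control. In control the order of levels was Usp18, Isg15, Ube2l6, Uba7 and Herc6, with none of these neighbours overlapping in their libraries. In LPS it was Isg15, Usp18, Ube2l6, Uba7 and Herc6, again with no overlap, while Usp18 overlapped Ube2l6 in DSF+LPS and Isg15 in DSF. Herc6 was the lowest in every group, at 0.620 ± 0.0513 CPM per kb in DSF+LPS, 4.84 ± 0.817 in LPS, 0.992 ± 0.208 in DSF and 1.16 ± 0.120 in control.

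The ratio of Isg15 to Usp18 transcripts per kb was 1.95 and 2.92 in DSF+LPS libraries, 1.22 and 1.26 in LPS libraries, 1.08 and 1.21 in DSF libraries and 0.513 and 0.596 in control libraries. No 2 groups overlapped. The ratio was higher with either agent than in control and highest with both, and the LPS and DSF libraries lay close together. The ratio of Usp18 to Uba7 was 4.20 and 2.76 in DSF+LPS, 9.37 and 9.35 in LPS, 3.95 and 3.81 in DSF and 3.97 and 3.89 in control libraries, and the LPS libraries alone stood apart. Isg15 over Uba7 was 8.18 and 8.06 in DSF+LPS, 11.5 and 11.7 in LPS, 4.28 and 4.62 in DSF and 2.04 and 2.32 in control libraries, again with no overlap between groups. Ratios were compared in pairs of groups with a two-sided exact permutation test, whose smallest possible p with 2 libraries against 2 is 0.333, so that none could pass.

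**Figure D4:**
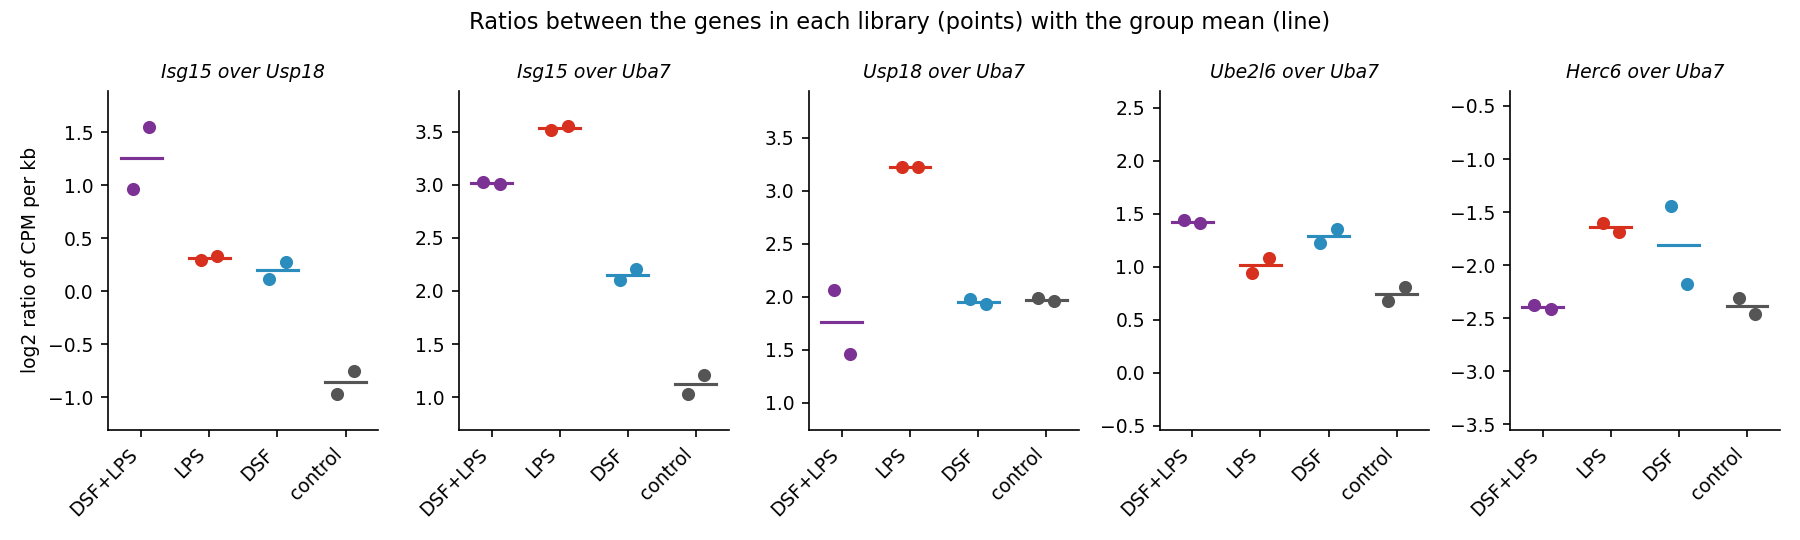
Log2 ratios of CPM per kb between pairs of the 5 genes in each of 8 libraries, 2 points a group with the group mean as a line; every panel spans the same number of log2 units. Isg15 over Usp18 (1.95 and 2.92 in DSF+LPS) is highest in the DSF+LPS libraries and lowest in the control libraries, and Usp18 over Uba7 is high in the LPS libraries.

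Among genes upstream of the ISG15 system, the interferon-β gene Ifnb1 was too low to be tested, with 2 and 3 counts in DSF+LPS libraries, 16 and 8 in LPS libraries, 1 and 0 in DSF libraries and 0 and 0 in control libraries. Of 13 tested genes of interferon signalling 9 rose with LPS and none fell, against 15.2% and 13.8% of all genes. Their median log2 fold change was 1.08. Relative to LPS alone, 10 fell with both agents and 1, the kinase gene Jak1, rose, against 31.6% and 33.7% of all genes. The median was -1.43. Stat2 and Irf9, which encode factors that bind interferon-stimulated response elements, were among the falls, with log2 fold changes of -2.60 (SE 0.10) and -2.01 (SE 0.12). Irf3, the factor that starts interferon-β transcription, had 46.8 CPM in DSF+LPS and 43.7 CPM in LPS cells and did not pass (log2 fold change 0.10, SE 0.10, adjusted p = 0.402).

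With DSF alone 9 of these 13 genes fell and 2 (Socs1 and Jak1) rose, against 27.1% and 31% of all genes. The receptor gene Ifnar1 fell to 34.7 CPM in DSF cells, against 73.4 CPM in control cells (log2 fold change -1.08, SE 0.09), and Ikbke, which encodes a kinase that acts on IRF3, had a log2 fold change of -1.42 (SE 0.11). Socs1, a brake on interferon receptor signalling, had 94 and 111 counts in DSF libraries and 4 and 18 in control libraries (log2 fold change 3.25, SE 0.35), a value that rests on few control counts. Within DSF-treated cells Ikbke was the one gene of the 13 that LPS raised (log2 fold change 2.30), against 5.53% of all genes. With size factors (RLE) and with DESeq2 2 rose, and with library size alone 1 fell as well. Which genes were called there also depended on single libraries, and 14 genes of the list passed the filter in the fits that left 1 out. The interaction was called for 9 of 13, all downward, against 12.2% of all genes. Among them were Socs1 (-3.55) and Stat2 (-2.04). For Socs1 this value rests on the same few control counts. Its levels were 7.42 and 6.88 CPM in DSF+LPS libraries, 8.89 and 8.75 CPM in LPS libraries and 4.26 and 5.73 CPM in DSF libraries. With both agents relative to control Socs1, Jak1 and Ikbke rose and 6 fell, among them Ifnar1 (-1.34), against 34.3% and 30.9% of all genes.

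Other interferon-stimulated genes gave the setting for the 5. All 24 that were tested rose with LPS, against 15.2% of all genes. The median was 2.62, with the largest values for Cxcl10 (6.31), Gbp2 (5.62) and Ifit1 (5.29). Relative to LPS, 23 of 24 fell with both agents, against 31.6% of all genes. The median was -3.34, and the other gene, the membrane protein gene Bst2, had -0.16 (adjusted p = 0.0518). The largest falls were in Ifit2 (-5.45), Ifit3 (-5.12) and Ifit1 (-5.11). Within DSF-treated cells 7 rose with LPS and Eif2ak2, which encodes the antiviral kinase PKR, fell, against 5.53% and 6.53% of all genes. The median was 0.06 (5 rose and 6 fell with library size alone). These counts rested on single libraries: 2 rose and 0 fell without DSF replicate 1, 5 rose and 5 fell without DSF+LPS replicate 1, and 6 rose and 0 fell without DSF replicate 2 or without DSF+LPS replicate 2. A fit of DSF+LPS and DSF alone called 3 rises and 0 falls. The rises there were led by Cxcl10 (2.16), Gbp2 (1.11) and Oasl1 (0.68). The interaction was called downward for all 24, from -0.30 in Bst2 to -4.89 in Ifit1, against 12.2% of all genes. It was called for 23 of 24 with library size alone, with size factors (RLE) and with DESeq2, and for 23 of 25 with no filter. With DSF alone 13 fell and 4 rose (Cxcl10, Mx1, Mx2 and Rsad2), against 27.1% and 31% of all genes. Mx2 was at 2.02, Oasl2 at -1.64 and Parp14 at 15.2 CPM in DSF and 60.7 CPM in control cells. With both agents relative to control 14 fell and 7 rose, against 30.9% and 34.3% of all genes. Several of these genes belong to families of close copies, and how reads were split between them is uncertain.

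A further list held other enzymes reported to act with ISG15 and the subunits of a reported receptor for it. Its counts stand against these shares of all genes tested. With LPS 15.2% rose and 13.8% fell, and with DSF alone 31% rose and 27.1% fell. With both agents 33.7% rose and 31.6% fell relative to LPS, and 34.3% rose and 30.9% fell relative to control. With LPS under the drug 5.53% rose and 6.53% fell, and the interaction was upward for 7.58% and downward for 12.2%. Trim25, a ubiquitin ligase also reported to attach ISG15, had 194 CPM in DSF+LPS, 476 in LPS, 226 in DSF and 304 in control cells. It rose with LPS by 0.64, fell with DSF alone (-0.43) and with both agents relative to LPS (-1.30, SE 0.07, adjusted p = 9.23e-10), and had an interaction of -0.87. Itgal, a subunit of the integrin LFA-1, reported as a receptor for free ISG15, rose with LPS by 1.39 and fell with both agents relative to LPS (-1.91). Of the 8 tested genes of this list Trim25, Arih1, Usp14, Usp16 and Itgal rose with LPS (2 rose and 1 fell with library size alone), with a median of 0.25. The rises numbered 3 without control replicate 1 and 2 without control replicate 2 or LPS replicate 2. Relative to LPS, Itgal, Trim25, Usp14, Usp16 and Usp5 fell with both agents and Itgb2 rose, with a median of -0.50, and the rise was lost without LPS replicate 2 or DSF+LPS replicate 2. With DSF alone Usp5, Itgal, Trim25, Usp14 and Usp21 fell and Arih1 and Itgb2 rose. The rises numbered 1 without any single DSF or control library, and the falls 3 without control replicate 1 or DSF replicate 1. Within DSF-treated cells Usp14 was the one called, at -0.24, and none was called without DSF replicate 1, without DSF replicate 2 or in a fit of the compared groups only. With both agents relative to control 5 fell, led by Usp5 (-0.67), and 2 rose, with 3 falls without control replicate 1 and 1 rise without control replicate 2 or DSF+LPS replicate 1. The interaction was called for Itgal, Trim25, Usp14, Usp16 and Arih1, all downward, and for 3 genes with library size alone and without any single library other than DSF+LPS replicate 1, where it was called for 5.

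Genes of ubiquitin and of other ubiquitin-like modifiers were called in both directions, as genes were over the whole table. Ubb, which encodes chains of ubiquitin, averaged 3587 CPM in DSF+LPS, 699 CPM in LPS, 2399.8 CPM in DSF and 527 CPM in control cells. It rose with DSF alone (2.19, SE 0.09) and with both agents relative to LPS (2.36, SE 0.09), where Isg15 fell. How reads of ubiquitin genes were split between near-identical copies is uncertain. The ubiquitin E1 gene Uba6 fell with both agents relative to LPS (-1.47), as did the E2 gene Ube2l3 (-0.44). Of the 27 tested genes of this list 7 rose and 2 fell with LPS, against 15.2% and 13.8% of all genes, and 10 rose and 8 fell with DSF alone, against 31% and 27.1%. With both agents 10 rose and 12 fell relative to LPS, against 33.7% and 31.6% of all genes, and 12 rose and 11 fell relative to control, against 34.3% and 30.9%. With LPS under the drug 3 rose and 4 fell, against 5.53% and 6.53%, and the falls numbered 0 without DSF replicate 1, 1 without DSF replicate 2 and 2 without DSF+LPS replicate 2. With library size alone 1 rose and 6 fell with LPS, and leaving out any single LPS or control library left 2 or 3 rises. The interaction was called for 7, led by Sumo2 (-0.72) and Uba6 (-0.63), all downward. With library size alone 4 were upward and 5 downward, and without single libraries 0 to 4 were upward (4 without DSF+LPS replicate 2) and 4 to 6 downward. Herc3, another HERC gene, fell with LPS (-0.61) and rose with both agents relative to LPS (1.01).

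**Figure D5:**
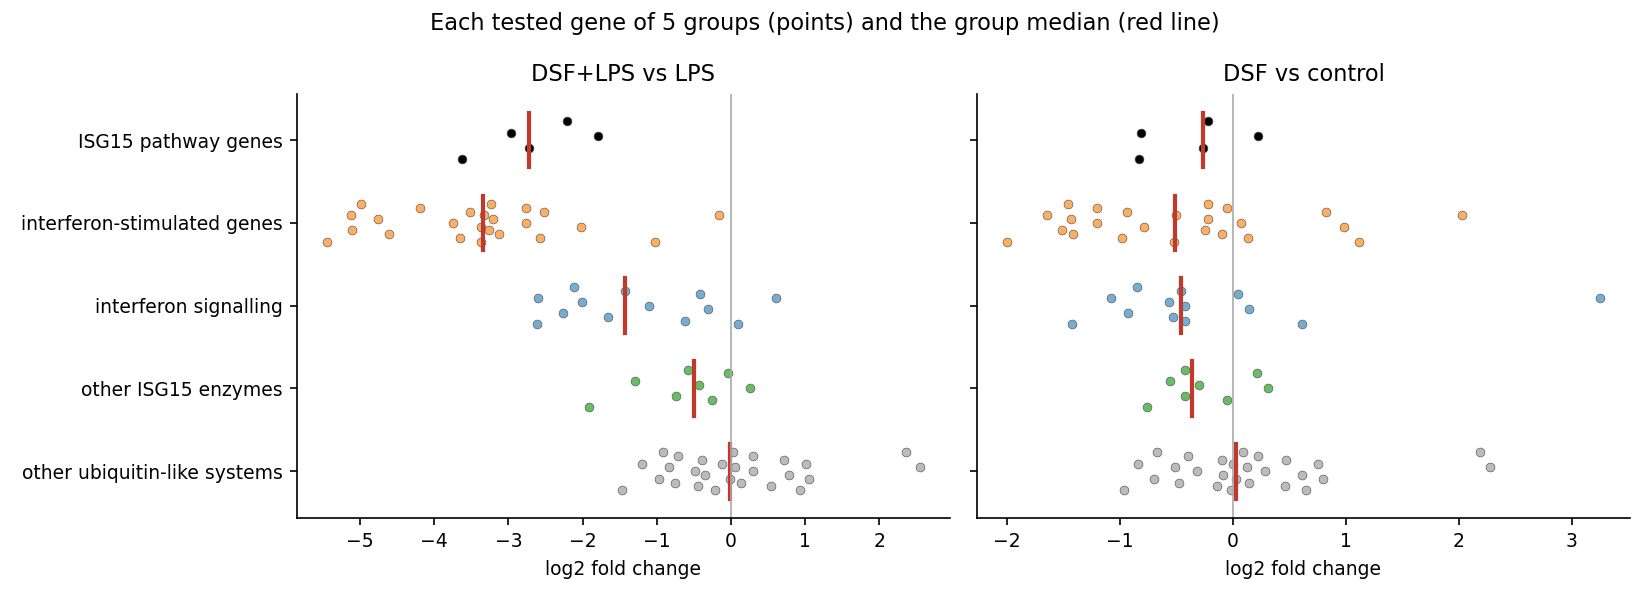
Log2 fold changes of every tested gene (points) in 5 groups, with the group median as a red line, for DSF+LPS vs LPS (left) and DSF vs control (right). At left the ISG15 pathway genes have a median of -2.73, between the interferon-stimulated genes at -3.34 and interferon signalling at -1.43, while the other ubiquitin-like systems are centred on -0.01 (0.02 with size factors in place of TMM).

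Genes with a like course were sought by the root mean square difference between log2 CPM profiles over the 8 libraries, each centred on its own mean. The 5 genes lay 0.29 (Herc6), 0.33 (Uba7), 0.35 (Ube2l6), 0.41 (Usp18) and 0.62 (Isg15) log2 units from their common mean profile. These distances are small in part by construction, since the 5 genes make up that mean. Over 12753 genes the median distance to it was 1.15, and 237 genes outside the system were nearer to it than Isg15. The nearest was Stat2 at 0.12, with 22.8 CPM in DSF+LPS, 138 in LPS, 24.4 in DSF and 36.0 in control cells. Cybb, the catalytic subunit of the phagocyte oxidase, followed at 0.19, and then came Lpcat2, Irf7, Samd9l, Aoah, Slc28a2, Tet2, Lcp2 and Fcgr2b at 0.19 to 0.22. Among single genes, Uba7 was nearest to Irf9 (0.11), Ctsc (0.13) and Xylt2 (0.15), and Ube2l6 to Lgals9, Celsr3 and Dock4 (0.12 to 0.13). Usp18 was nearest to Ifi203-ps, Ms4a6c and Slfn8 (0.18 to 0.21) and Herc6 lay 0.25 from Stat2 and 0.27 from Tap1. Isg15 was nearest to Arhgef3, Cebpd and Ccl2 (0.20 to 0.23). Each was higher in DSF+LPS than in control cells, as Isg15 was, a likeness that the choice of the nearest profiles favours. All profiles come from the same 8 libraries.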

How the data were processed

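The authors deposited 1 table of read counts per gene, whole numbers that were not normalized, for 8 libraries. The submitters' processing notes name GRCm39 and DESeq2 and give neither a role. The aligner, the counter, the annotation and strand handling: not given in the sources used here. Symbols came from GENCODE M21 (52081 of 55414 identifiers matched). Annotated genes overlapping Usp18, Uba7 or Herc6 had at most 7 counts a library, and a transcript 95.2% identical to Isg15 over 482 bases had at most 5. Of the overlapping genes, Gm45193 shares 688 bases (100%) with Herc6 and Gm20661 239 bases (99.6%) with Uba7. Whether such shared reads were counted or left out is not known, which bears on the levels per kb. Ift46 shares 260 bases (96.5%) with Ube2l6, so their reads may be split.

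Counts were tested with edgeR 4.0.16 in R 4.3.3 (quasi-likelihood, TMM scaling, filterByExpr with minimum count 10 and total 15), with all 8 libraries in 1 fit and a mean per group, which gives a biological coefficient of variation of 7.85%. SE was taken as the log2 change over the root of F. Scripts were tested on simulated data. Alternatives were library size alone, size factors (RLE), DESeq2 1.42.0, no filter, a replicate block, fits of the compared groups and leaving out each library.

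The members and the 4 lists of other genes (76 symbols, 72 tested) were chosen with earlier results of these data known. Text names the 5 members, up to 3 called genes of each list with the largest change per comparison, all genes behind counts of 5 or fewer and the nearest profiles (10 for the mean, 3 for each member; predicted genes left out; 0.5 counts added before logs). Other genes named (Irf3, Bst2, Ube2l3, Ifnar1 levels and the like) were chosen after their values were seen. Replicates of each group differed by more than counting noise, and unequally. Chi-square per degree of freedom was 13.3 in DSF+LPS, 4.28 in LPS, 7.07 in DSF and 3.88 in control libraries. The fit shares its estimate of spread between groups, so the SE of comparisons with DSF+LPS may be too small. Some genes that the naming rule selects are not reported here.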

Additional observations from a re-analysis of the deposited data

Results flagged for a closer look

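The LPS response differed between cells with and without DSF for all 5 genes of the ISG15 system, tested as an interaction in the edgeR fit (2 libraries a group). The log2 response with the drug minus that without it was -2.95 for Isg15, -2.79 for Usp18, -2.74 for Herc6, -1.53 for Ube2l6 and -1.40 for Uba7. All 5 stayed called in the 13 alternatives run for the interaction, with adjusted p up to 0.000985. Groups of 2 libraries were too small to be tested for single outlying libraries.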

How the results depend on the processing

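Of 320 values of the 5 genes under alternatives, 303 kept their direction and their side of the threshold. All 5 rises with LPS, falls with DSF+LPS relative to LPS and interactions did so in every alternative. The differences within DSF-treated cells (DSF+LPS vs DSF) were the least stable. There Herc6 was called, so that 1 member fell in place of 0, with library size alone, with no filter and with the replicate block, and leaving out single libraries gave 0 to 1 members that rose and 0 to 1 that fell. The values of 3 members changed sign there without single libraries, ranging from -0.65 to 0.12 for Usp18, -0.22 to 0.081 for Uba7 and -0.15 to 0.28 for Ube2l6, which was -0.057 with library size alone. For DSF vs control, leaving out single libraries gave 0 to 1 members that rose, and Isg15 ranged from -0.019 to 0.39.

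Counts over all genes moved more. With library size alone, under which the all-gene median moved by -0.14 (LPS vs control), -0.10 (DSF vs control), -0.11 (DSF+LPS vs DSF) and -0.21 (DSF+LPS vs control), 1614 genes rose and 3774 fell with LPS (2485 and 2246 with TMM, and 30.0% of calls were upward, against 52.5% with TMM), and 464 rose and 2190 fell for DSF+LPS vs DSF (901 and 1065, and 17.5% upward, against 45.8% with TMM). For DSF+LPS vs control 41.0% of calls were upward, against 52.7% with TMM. A fit of the compared groups only gave 324 and 200 for DSF+LPS vs DSF, and leaving out single libraries 250 to 1194 and 149 to 1212. Without single libraries 1429 to 1577 genes fell with LPS, and for the interaction 719 to 1753 rose (1236) and 1284 to 2067 fell (1981). The causes were not tested. The replicate numbers do not pair the samples by the labels, and deviations of same-numbered libraries correlated across genes between -0.11 and 0.05. The replicate block left the other calls of members as they were, and a block with crossed numbers in a fit of DSF+LPS and DSF only, chosen after seeing the data, gave 1197 rises and 1118 falls, against 324 and 200 in that fit with no block. Depth limits Herc6 most, at 51 counts in its lowest library.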
